A study of Mus musculus with 2 samples.

Results

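The genes examined build the ventricular thick filament or act on it, and are 7 of the 24542 gene symbols in the deposited table. They are the heavy chains Myh6, Myh7 and Myh7b, the light chains Myl2 and Myl3, the light chain kinase Mylk3 and the filament protein Mybpc3. They were taken by symbol, reads of all transcripts of a symbol being summed, and all 7 were abundant enough to be tested. The tissue was the left ventricle of male C57BL/6 mice, taken 7 days after the left anterior descending artery had been closed for good near its origin, which leaves an infarct. Only muscle remote from the infarct was used, without scar or border. The 2 groups were littermate controls and mice lacking NRK-2 (the muscle kinase of nicotinamide riboside encoded by Nmrk2); the sources used here do not state age, number of mice or the way the gene was deleted. Both groups carried the ligation, and no heart without it was analysed here.

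Each genotype has 1 listed sample, whereas the table has 3 numbered libraries of each, called control 1 to 3 and KO 1 to 3, with 22377348 to 33086384 counted reads. Nothing says that they came from separate mice, so p-values measure only the spread between libraries, which may be technical. Levels are given as CPM (each gene's reads relative to the library total after TMM scaling, on the usual CPM scale), and log2 fold changes are those of the knockout relative to the control. Libraries stood apart in 2 ways. Nmrk2 was at 4.79 to 15.1 CPM in control and at 0.252 and 0 CPM in KO 2 and KO 3, but at 27.9 CPM in the library labelled KO 1, against its label. Genes of atrial muscle were present in control 1, control 2 and KO 1 and nearly absent from control 3, KO 2 and KO 3, as set out below. Of 12 cardiomyocyte markers outside the members all were detected, with a summed level of 52963 to 86512 CPM in control and 35934 to 55046 CPM in the libraries labelled KO. None of the 12 passed the test described below, and all 12 had a lower fitted level. The 8 fibroblast markers summed to 6547 to 18025 CPM in control and 28657 to 39767 CPM in the libraries labelled KO. The part of the atrial, cardiomyocyte and fibroblast genes in the results below was not tested, and in bulk tissue fewer cardiomyocytes cannot be told apart from less RNA per cardiomyocyte.

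The thick filament is a bundle of myosin molecules, each made of a pair of heavy chains with motor heads and, on each head, an essential and a regulatory light chain. The adult mouse ventricle uses mainly the fast alpha heavy chain, encoded by Myh6, while the slow beta chain, encoded by Myh7, dominates before birth and returns under load or when thyroid hormone is low. The regulatory light chain Myl2 is phosphorylated by the cardiac kinase Mylk3, and myosin binding protein C, encoded by Mybpc3, tethers the heads and tunes their recruitment. The heavy chain genes also carry microRNAs in their introns that are known to act on the choice of heavy chain.

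Those microRNAs are shown because they tie each heavy chain gene to a regulator made from the same transcript. The mature sequences are from RefSeq (GRCm38.p6, the build called mm10 in the deposited table), 5′ to 3′, with the seed (bases 2 to 8) in capitals.
mmu-miR-208a-3p: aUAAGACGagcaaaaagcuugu
mmu-miR-208b-3p: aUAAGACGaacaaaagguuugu
mmu-miR-499-5p: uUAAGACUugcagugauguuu
The first lies at chr14:54949072-54949093 on the minus strand, in intron 29 of 38 of Myh6. The second lies at chr14:54975710-54975731 on the minus strand, in intron 31 of 40 of Myh7, and the third at chr2:155622893-155622913 on the plus strand, in intron 19 of 41 of Myh7b (introns counted in the GENCODE M21 transcripts matched to the deposited ones). miR-208a and miR-208b share all 7 seed bases and 19 of 22 bases in all, and miR-499 shares 6 of the 7 seed bases with each. Reads on the hairpins themselves were too few to compare, 7 at most for Mir208a in any library and 1 at most for Mir208b and Mir499. Such reads measure the host transcript and not the mature microRNA.

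**Figure D1:**
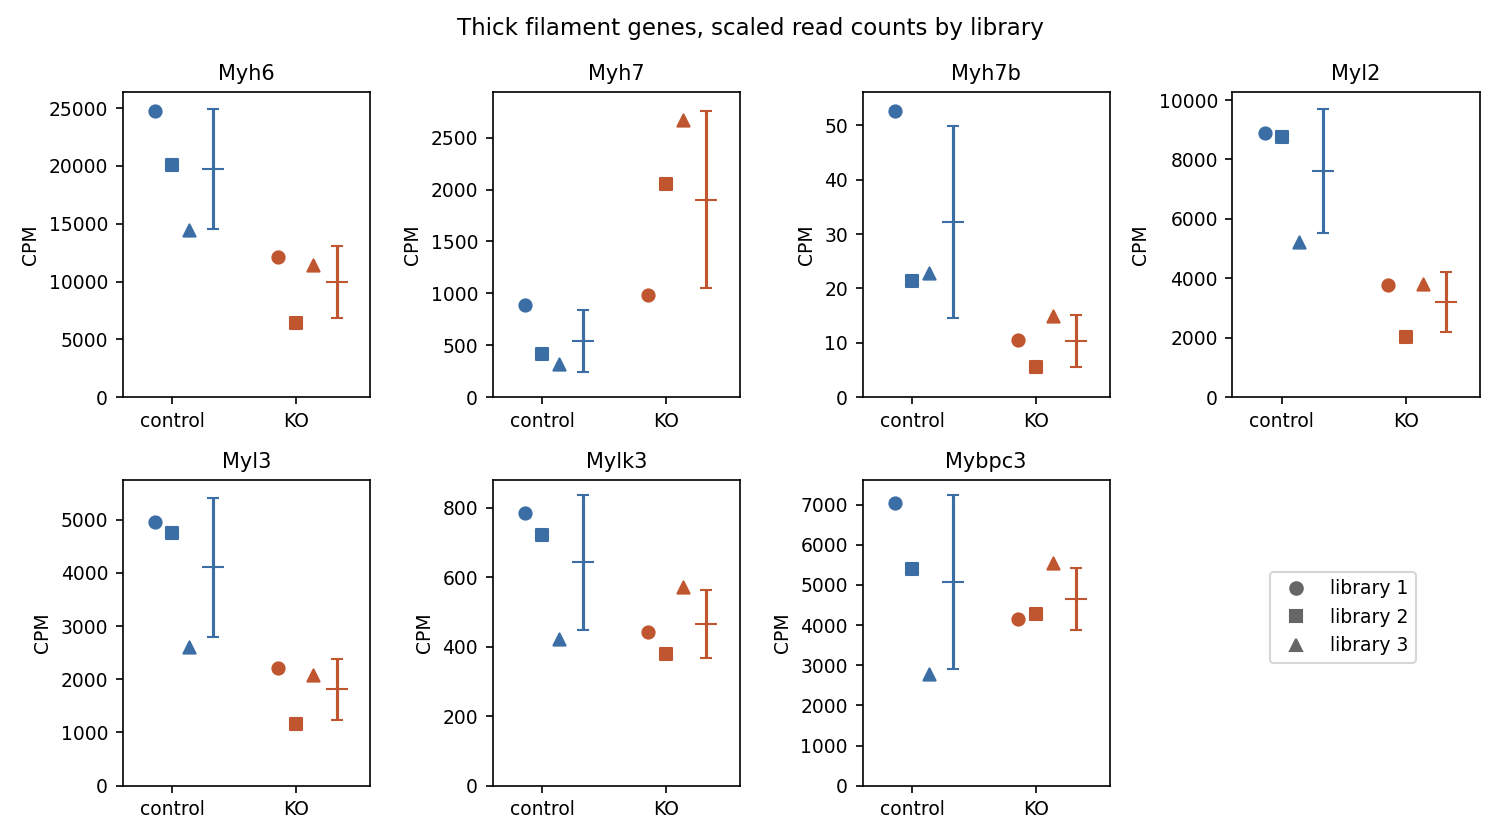
CPM of the 7 genes in each library (y axis, from 0) for control (blue) and libraries labelled KO (orange); the marker shape gives the library number and the bar beside the points is mean ± SD (n = 3 libraries). Myh7 lies above all control libraries in the 3 libraries labelled KO, Myh6, Myh7b, Myl2 and Myl3 lie below them, and Mylk3 and Mybpc3 overlap.

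Myh7 was higher and Myh6 and Myh7b were lower in every library labelled KO, although no heavy chain passed the test over all genes. Myh7, the beta heavy chain (gene ID 140781, chr14:54970688-54994549), was at 883, 418 and 321 CPM in control 1, 2 and 3 and at 981, 2057 and 2668 CPM in KO 1, 2 and 3. Every library labelled KO was above every control library, but KO 1 exceeded control 1 only narrowly. The means were 540.9 ± 300.6 and 1902.2 ± 854.3 CPM (SD, n = 3 libraries each), a ratio of 3.52. The log2 fold change of 1.81 (SE 0.50) missed the threshold of edgeR's quasi-likelihood test (adjusted p = 0.0898, Benjamini-Hochberg over 14466 genes).

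Myh6, the alpha heavy chain (gene ID 17888, chr14:54941921-54966607), was at 24786, 20069 and 14421 CPM in control and at 12114, 6409 and 11402 CPM in KO 1, 2 and 3. The groups did not overlap, and KO 2 was lowest. Control averaged 19758.9 ± 5189.4 CPM and the libraries labelled KO 9975.0 ± 3108.3 CPM, a ratio of 1.98 of the former to the latter (edgeR, log2 fold change -0.99 with an SE of 0.36, adjusted p = 0.148). Myh7b (gene ID 668940, chr2:155611243-155634307), an ancient relative of Myh7 and the host of miR-499, was at 52.7, 21.4 and 22.8 CPM in control and at 10.5, 5.46 and 15.0 CPM in KO 1, 2 and 3. These groups did not overlap either, and control 1 stood well above the other libraries. The log2 fold change was -1.65 (SE 0.48, adjusted p = 0.096 by edgeR).

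The balance of both ventricular heavy chains is free of library scaling. Myh7 made up 3.44%, 2.04% and 2.18% of the Myh6 plus Myh7 reads in control 1, 2 and 3. In KO 1, 2 and 3 the share was 7.49%, 24.3% and 19.0%. All 3 libraries labelled KO exceeded all control libraries, and KO 1 lay between the control libraries and the other 2. The 95% Clopper-Pearson intervals, which cover counting error only, were narrow, from 2.0% to 2.08% in control 2 and from 24.1% to 24.5% in KO 2. Put another way, there were 28.1 to 48.0 Myh6 reads for each Myh7 read in control, 12.3 in KO 1, 3.12 in KO 2 and 4.27 in KO 3. The mean share was 2.55% ± 0.772 in control and 16.9% ± 8.59 in the libraries labelled KO (SD, n = 3 each). A two-sided exact permutation test gave p = 0.1, the smallest that 3 against 3 allows, and 0.3 after adjustment over the 3 isoform shares compared. The difference of 14.4 percentage points was 19.1 without KO 1, whose Nmrk2 level goes against its label. Among the libraries with atrial transcripts the share was 3.44% and 2.04% (control 1 and 2) against 7.49% (KO 1). Among those nearly free of them it was 2.18% (control 3) against 24.3% and 19.0% (KO 2 and KO 3).

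**Figure D2:**
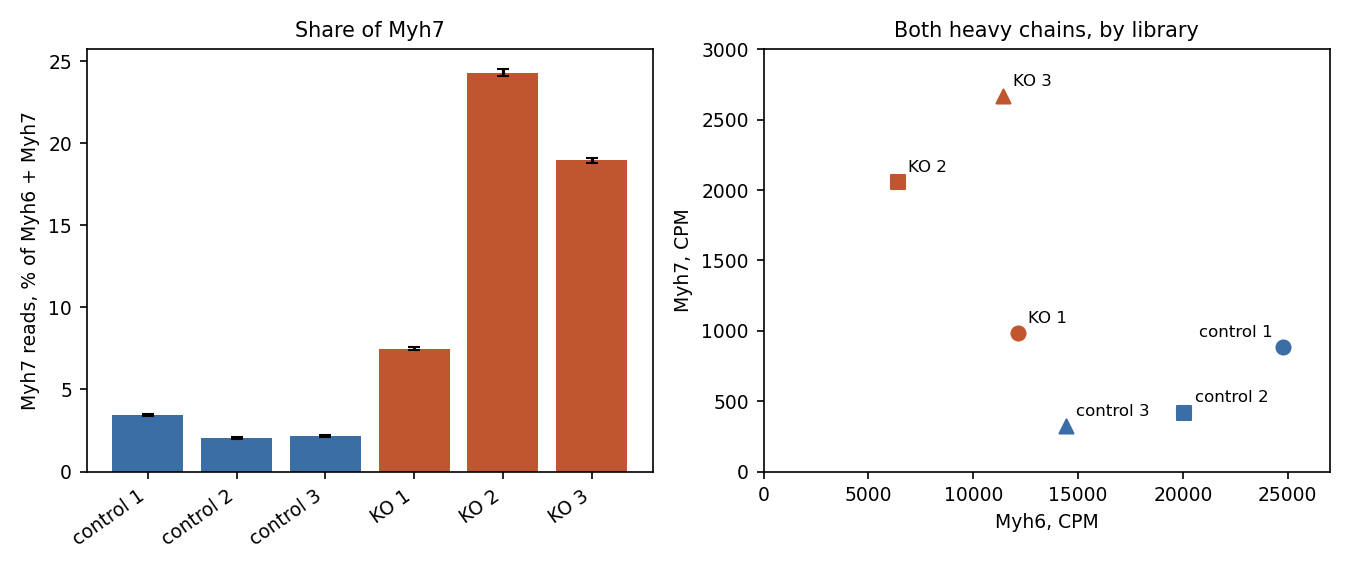
Left, Myh7 reads as a percentage of Myh6 plus Myh7 reads in each library, with 95% counting intervals as bars; right, CPM of Myh7 (y axis) against Myh6 (x axis) in the same libraries. The control libraries lie at 3.44% or less and the libraries labelled KO at 7.49% or more, KO 2 and KO 3 combining the highest Myh7 with low Myh6.

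Reads may not be fully assignable between these genes. Of the 100-base windows of the Myh7 message, 11.4% occur without a mismatch in the Myh6 messages, and 22.6% of the 50-base windows do. The sources used here do not state how shared reads were divided. Summed, Myh6 and Myh7 were at 25669, 20488 and 14742 CPM in control and at 13095, 8467 and 14070 CPM in KO 1, 2 and 3, lower as a sum in spite of the higher Myh7. The groups did not overlap, though control 3 and KO 3 were close (means 20300 ± 5466 and 11877 ± 2994 CPM, exact p = 0.1).

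The genes lie head to tail on the minus strand, 4080 bases apart. The windows of 250 bases before their starts are shown because the data concern the use of these 2 neighbouring genes; they are from RefSeq (GRCm38.p6), minus strand, 5′ to 3′. Capitals mark the MCAT motif, the site of TEAD factors, searched as CATTCC on both strands (GGAATG on the other).
Myh6, chr14:54966608-54966857: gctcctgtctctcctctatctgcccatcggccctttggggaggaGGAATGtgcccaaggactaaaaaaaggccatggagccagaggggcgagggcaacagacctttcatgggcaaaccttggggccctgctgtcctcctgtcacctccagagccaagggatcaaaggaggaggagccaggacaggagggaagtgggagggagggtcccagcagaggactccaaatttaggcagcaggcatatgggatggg
Myh7, chr14:54994627-54994876: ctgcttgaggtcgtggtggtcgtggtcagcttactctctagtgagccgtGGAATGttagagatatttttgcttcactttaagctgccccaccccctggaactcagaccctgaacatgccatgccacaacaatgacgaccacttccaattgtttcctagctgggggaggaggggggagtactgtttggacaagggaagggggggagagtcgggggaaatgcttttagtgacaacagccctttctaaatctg
The printed Myh7 window belongs to the upstream one of 2 RefSeq starts, and the window of the start used in the deposited table (chr14:54994550-54994799) holds no CATTCC. Both printed windows hold 1 match, and 12.6% of 32807 promoter windows of the same length hold at least 1. Of the other members, Myl3 has 2 matches in its window and Mylk3 has 1 before the start of its main transcript. The windows of Mybpc3, Myh7b and Myl2 hold 0. Neither printed window holds an exact copy of the half-site AGGTCA of thyroid hormone receptors on either strand, which 14% of the 32807 windows hold. Half-sites that differ from these letters were not searched for, so the windows may still hold such a site. The factors Tead1, Tead3 and Tead4 did not pass edgeR's test (adjusted p = 0.972, 0.373 and 0.384).

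Both ventricular light chains were lower in every library labelled KO, with similar log2 fold changes that missed the threshold. Myl2, the regulatory light chain (gene ID 17906, chr5:122100951-122106854), was at 8875, 8746 and 5221 CPM in control and at 3777, 2030 and 3819 CPM in KO 1, 2 and 3. The groups did not overlap, control 3 being the lowest control library and KO 2 the lowest of all. Means were 7613.9 ± 2073.2 and 3208.6 ± 1021.1 CPM, with a log2 fold change of -1.25 (SE 0.35, adjusted p = 0.0906 by edgeR). Myl3, the essential light chain (gene ID 17897, chr9:110763681-110769794), was at 4955, 4758 and 2601 CPM in control and at 2208, 1158 and 2078 CPM in KO 1, 2 and 3. It kept the same order of groups, with control 3 again nearest to the libraries labelled KO. The log2 fold change was -1.18 (SE 0.36, adjusted p = 0.101 by edgeR).

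Mylk3, the cardiac myosin light chain kinase (gene ID 213435, chr8:85324929-85381041 over both transcripts), was at 785, 722 and 421 CPM in control and at 443, 379 and 572 CPM in KO 1, 2 and 3. Control 3 lay within the range of the libraries labelled KO, so the groups overlapped. The log2 fold change was -0.47 (SE 0.28, adjusted p = 0.326 by edgeR). Mybpc3 (gene ID 17868, chr2:91118144-91136516) was at 7055, 5391 and 2773 CPM in control and at 4157, 4272 and 5553 CPM in KO 1, 2 and 3. The control libraries spanned the others, from the highest value of all to the lowest. Its log2 fold change of -0.12 (SE 0.36, adjusted p = 0.863 by edgeR) had no stable sign, being 0.01 with scaling by library totals and 0.19 without control 1.

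Of the 7 genes, 0 passed edgeR's test, against 3.7% of all 14466 genes tested (2.61% risen and 1.09% fallen), and 5 had an unadjusted p under 0.05 (all but Mylk3 and Mybpc3), against 25.9% of all genes. The libraries of the 2 genotypes did not overlap for 5 of the 7, against 30.9% of all genes. Of these, 1 was higher (16.4% of all genes) and 4 were lower (14.5%) in the libraries labelled KO. The median log2 fold change of the 7 was -0.99, and over all genes it was 0.01. Of the 12 cardiomyocyte markers outside the members, 6 did not overlap, all lower in the libraries labelled KO. The median log2 fold change of the 12 was -0.70. DESeq2 called 5 of the 7, Myh7 as higher (adjusted p = 0.000732) and Myh6, Myh7b, Myl2 and Myl3 as lower (adjusted p = 0.00932, 0.00547, 0.00101 and 0.00384); it called 15.5% of its 15000 genes, 7.16% as risen and 8.29% as fallen. Limma on log2(FPKM + 1) called 0 of the 7 and 5.97% of all genes. Without control 3, edgeR called Myh7b, Myl2, Myl3 and Mylk3 as lower (adjusted p = 0.0403, 0.0271, 0.0249 and 0.0475), with 24.6% of genes called, 12.9% as fallen. Without KO 1 none of the 7 was called (0.597% of genes were), and the log2 fold changes were 2.13 for Myh7, -1.15 for Myh6, -1.66 for Myh7b, -1.38 for Myl2, -1.34 for Myl3, -0.44 for Mylk3 and -0.05 for Mybpc3. Among the libraries nearly free of atrial transcripts (control 3 against KO 2 and KO 3), 0 of the 7 and 0.0% of all genes were called, so the count says nothing of the members. The log2 fold changes there were 2.88 for Myh7, -0.69 for Myh6, -1.15 for Myh7b, -0.83 for Myl2, -0.68 for Myl3, 0.18 for Mylk3 and 0.83 for Mybpc3.

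Per length, the order of the messages changed at 2 places. By the deposited FPKM, which relates reads to transcript length and library total, the order in control was Myl2 (10763.8 ± 2094.4), Myl3 (4265.5 ± 1043.6), Myh6 (3051.4 ± 582.9), Mybpc3 (1135.0 ± 412.0), Mylk3 (195.9 ± 44.6), Myh7 (83.2 ± 41.7) and Myh7b (4.93 ± 2.45). Among neighbours in that order, only Myl3 and Myh6 had overlapping ranges over the 3 control libraries. In the libraries labelled KO the order was Myl2 (4906.5 ± 1434.5), Myl3 (2046.0 ± 593.3), Myh6 (1662.4 ± 475.3), Mybpc3 (1143.1 ± 171.6), Myh7 (320.7 ± 142.8), Mylk3 (154.1 ± 28.7) and Myh7b (1.70 ± 0.754). Here Myh7 stood above Mylk3 and the ranges of those neighbours overlapped, as did those of Myl3 with Myh6 and of Myh6 with Mybpc3. Within each of the 3 libraries, however, the FPKM of the first of each of these pairs was the higher.

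Ratios between the members were added once the values were known. The FPKM ratio of Myl2 to the summed heavy chains Myh6 and Myh7 was 3.17, 3.92 and 3.25 in control and 2.65, 2.20 and 2.49 in KO 1, 2 and 3. That of Myl3 was 1.31, 1.57 and 1.19 in control and 1.14, 0.924 and 0.999 in KO 1, 2 and 3. For both light chains every library labelled KO was below every control library. Myl2 and Myl3 kept their ratio to each other within the spread of the libraries, 2.55 ± 0.154 in control and 2.40 ± 0.0876 in the libraries labelled KO (exact p = 0.2). The ratio of Mybpc3 to the summed heavy chains was 0.402, 0.385 and 0.275 in control and 0.465, 0.738 and 0.577 in KO 1, 2 and 3. The ratio of the kinase Mylk3 to its substrate Myl2 was 0.0191, 0.0178 and 0.0174 in control and 0.0253, 0.0404 and 0.0324 in KO 1, 2 and 3. Both were higher in every library labelled KO. For each of these 4 separated ratios the exact permutation test gave p = 0.1, the smallest possible, and 0.117 adjusted over the 7 quantities compared. The share of ratios between other genes that separate in these libraries was not computed, so the count of 4 has no background.

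**Figure D3:**
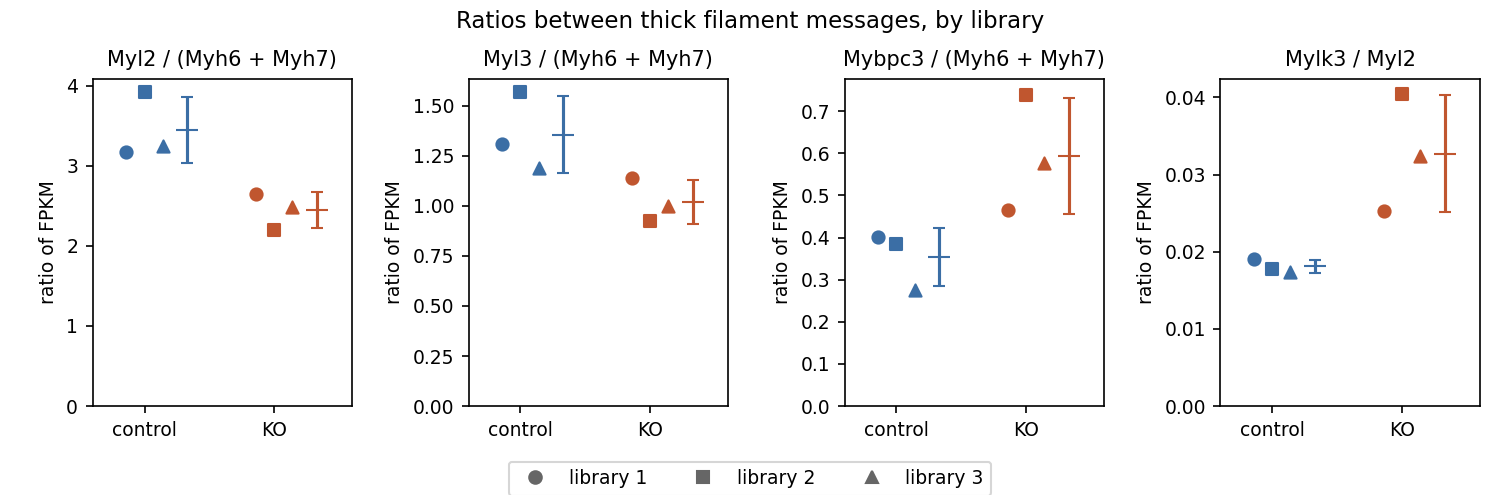
FPKM ratios between messages of the members in each library (y axes, from 0), control in blue and libraries labelled KO in orange, with mean ± SD (n = 3). The light chains are lower relative to the heavy chains in the 3 libraries labelled KO, and Mybpc3 relative to the heavy chains and Mylk3 relative to Myl2 are higher.

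A second scale was the level relative to other genes of the cardiomyocyte, the log2 CPM of each member minus the median log2 CPM of the 12 markers. On it Myh6 was at 3.0, 2.72 and 2.99 in control and 2.89, 2.67 and 2.88 in KO 1, 2 and 3. The groups overlapped with a difference of -0.09 (exact p = 0.5), so no separation of the genotypes was seen for Myh6 on this scale. The size was not stable, at -0.20 (exact p = 0.3) against the mean of the markers, from -0.18 without control 2 to -0.02 without KO 2 over the single libraries left out, with -0.04 without control 1 or control 3, and -0.22 among the libraries nearly free of atrial transcripts. Myh7 was at -1.81, -2.86 and -2.50 in control and -0.74, 1.03 and 0.79 in KO 1, 2 and 3, a difference of 2.75. Mybpc3, which overlapped in CPM, did not overlap on this scale, at 1.18, 0.83 and 0.61 against 1.35, 2.09 and 1.85 (difference 0.89). Mylk3 was at -1.98, -2.07 and -2.11 against -1.88, -1.41 and -1.43 (difference 0.48). These 3 genes were higher in every library labelled KO, while the light chains were lower, Myl2 by -0.35 and Myl3 by -0.26 on average. The markers themselves differed widely, with edgeR log2 fold changes from -0.29 (Actn2) to -1.52 (Tnni3). That range holds Myl2 (-1.25), Myl3 (-1.18) and Mylk3 (-0.47), so their differences here lie within the spread of the markers. Myh7 (1.81) and Mybpc3 (-0.12) lie above it. The 5 separated genes each had p = 0.1 by the exact permutation test, the smallest possible, and 0.14 adjusted over the 7 members. The share of all genes that separate on this scale was not computed, so the count of 5 has no background. Myh7b overlapped, with a difference of -0.71 (exact p = 0.2) that was -0.43 without control 1 and -1.06 without control 2. Without KO 1 the differences were 3.3 for Myh7, 1.09 for Mybpc3, 0.63 for Mylk3, -0.36 for Myl2, -0.30 for Myl3, -0.66 for Myh7b and -0.13 for Myh6.

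**Figure D4:**
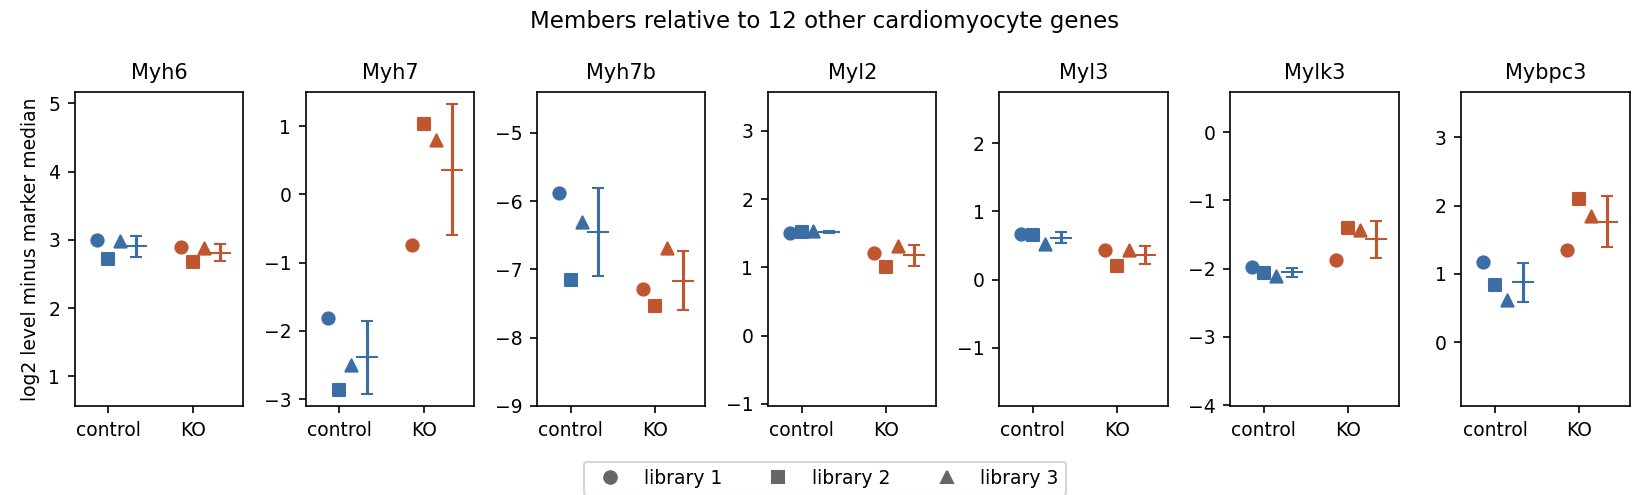
Log2 CPM of each member minus the median of 12 other cardiomyocyte genes (y axes, all spanning the same range of log2 units), by library, with mean ± SD (n = 3). Myh6 overlaps between the genotypes; Myh7, Mylk3 and Mybpc3 are higher in the libraries labelled KO, and Myl2 and Myl3 lower.

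Light chains typical of the atrium were unevenly spread over the libraries, whatever the genotype. Myl7, the atrial regulatory light chain, had 4170, 3365 and 0 reads in control 1, 2 and 3 and 3672, 41 and 6 reads in KO 1, 2 and 3, a count of 0 allowing up to 3 reads. Myl4, the atrial essential light chain, was at 204, 176 and 2.31 CPM in control and 316, 6.24 and 2.52 CPM in KO 1, 2 and 3. Both were therefore high in the same 3 libraries, 2 of them control, as was the atrial calcium pump regulator Sln. Of the 5 atrial markers Bmp10 had 0 reads in all libraries and Nppa, also a stress gene, was high in all libraries labelled KO. The summed level of all 5 was 110.4 to 928.6 CPM in control and 2357 to 3025 CPM in the libraries labelled KO, and without Nppa it was 2.31 to 435 and 2.74 to 468 CPM. By FPKM, Myl7 made up 2.52%, 2.04% and 0% of Myl2 plus Myl7 in control and 3.63%, 0.0629% and 0.00627% in KO 1, 2 and 3. Myl4 made up 4.02%, 3.62% and 0.0889% of Myl3 plus Myl4 in control and 12.7%, 0.544% and 0.123% in KO 1, 2 and 3. Neither share differed between the genotypes beyond the spread of the libraries (exact p = 1.0 and 0.8), and even in KO 1 the ventricular forms prevailed. Myh6 is the main heavy chain of the atrium too.

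**Figure D5:**
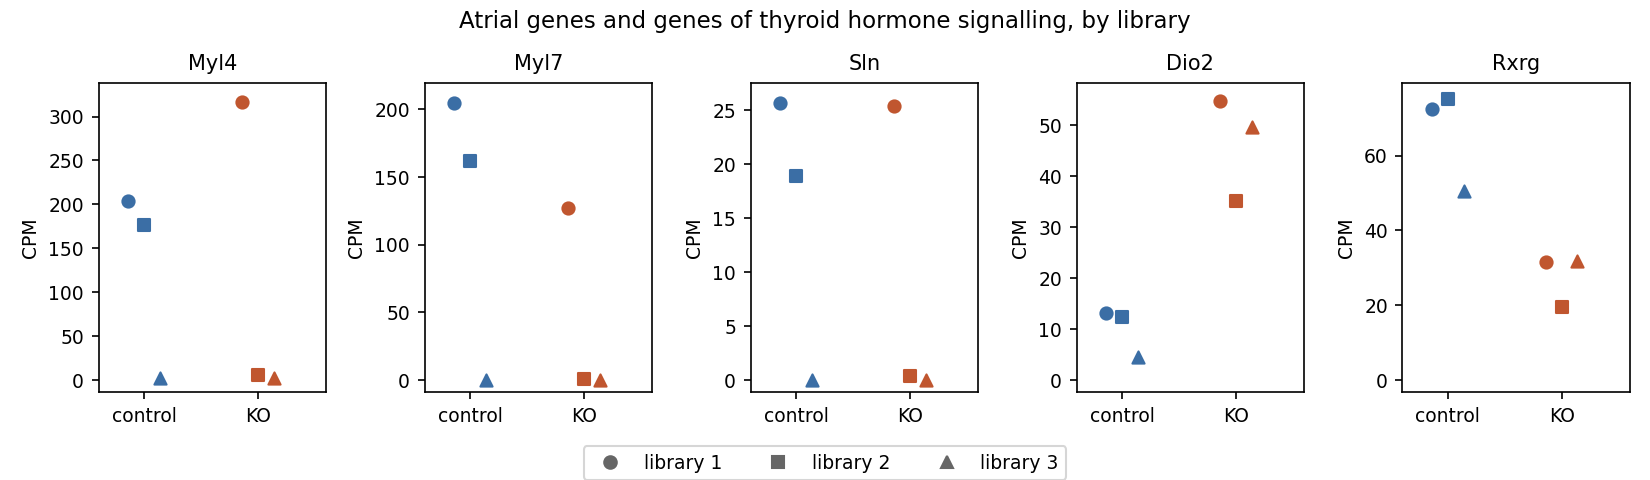
CPM of the atrial genes Myl4, Myl7 and Sln and of Dio2 and Rxrg, which belong to thyroid hormone signalling, in each library (y axes start just under 0). The atrial genes are high in control 1, control 2 and KO 1; Dio2 is higher and Rxrg lower in all 3 libraries labelled KO, with no overlap.

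Around the members, 6 lists of related genes were examined, 72 genes in all, of which 58 could be tested. Over all 6 lists 3 of the 58 rose and 1 fell by edgeR's test. Of all 14466 genes tested 2.61% rose and 1.09% fell, the shares to set beside each list below. Of the other myosin heavy chains 4 of 11 were tested and 1 rose, the non-muscle heavy chain Myh10, at 89.2, 80.5 and 58.5 CPM in control and 156, 167 and 148 CPM in KO 1, 2 and 3 (log2 fold change 1.05, SE 0.17, adjusted p = 0.0329). The fetal and fast skeletal chains Myh1, Myh2, Myh3, Myh4 and Myh8 were too low to test, at 1.09 CPM or less in every library. Of the other light chains 8 of 10 were tested and none passed, with Myl6, a light chain of smooth muscle and non-muscle myosin, at 192, 172 and 162 against 293, 302 and 218 CPM (adjusted p = 0.0803). Myl12a and Myl4 had adjusted p = 0.617 and 0.953.

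Among light chain kinases, their phosphatase and calmodulins, 1 of 12 rose and 0 fell. It was Mylk2, the skeletal muscle kinase, with 0 reads in each control library and 30, 36 and 18 reads in KO 1, 2 and 3, at least 20.0-fold higher with 3 reads over the control group as the limit (adjusted p = 0.0442 by edgeR). Mylk2 passed the low-count filter only through the libraries labelled KO. Its adjusted p was 0.0574 with no filter, and it was too low to be tested where a mean of at least 1 CPM was asked for. Mylk4, a further kinase of the heart, did not pass, at 79.0, 83.9 and 43.4 against 30.9, 11 and 21.7 CPM (adjusted p = 0.0696). Of the other myosin binding proteins and the kinases of myosin binding protein C, 5 of 7 were tested and none passed, among them Prkaca, the catalytic subunit of protein kinase A, with log2 fold change -0.69 (adjusted p = 0.104), Camk2d (adjusted p = 0.47) and Mybpc2 (adjusted p = 0.573). Of 6 genes of myosin folding and turnover 0 passed and 5 had a lower fitted level. The myosin chaperone Unc45b was at 264, 256 and 156 against 138, 95 and 132 CPM (adjusted p = 0.0897), and Smyd1, Hsp90aa1 and Fbxo32 had adjusted p = 0.125, 0.148 and 0.819. Mylk4 and Unc45b lie outside the naming rule and were picked with their values known.

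Of 26 genes known to act on Myh6 and Myh7, 23 were tested, 1 rose and 1 fell, and both belong to thyroid hormone signalling. Dio2, the deiodinase that makes active thyroid hormone inside cells, rose from 13.2, 12.3 and 4.58 CPM in control to 54.7, 35.1 and 49.7 CPM in KO 1, 2 and 3 (edgeR, log2 fold change 2.21, SE 0.40, adjusted p = 0.0404). Dio3, the deiodinase that inactivates the hormone and acts in the opposite sense to Dio2, was also higher in every library labelled KO but did not pass, with 0, 3 and 0 reads in control and 30, 49 and 28 reads in KO 1, 2 and 3 (adjusted p = 0.0716). Dio3 too lies outside the naming rule, and like Mylk2 it passed the low-count filter only through the libraries labelled KO. Rxrg, a retinoid X receptor that can pair with thyroid hormone receptors, fell from 72.5, 75.1 and 50.6 CPM to 31.7, 19.5 and 31.9 CPM (log2 fold change -1.26, SE 0.24, adjusted p = 0.0442). The receptors Thra and Thrb did not pass (adjusted p = 0.186 and 0.121), nor did Med13, a target of miR-208a (adjusted p = 0.984). Mhrt (chr14:54968787-54974349), a long non-coding RNA of the heart, overlaps 3662 bases of Myh7. Its level was 27.7, 24 and 21.5 CPM in control against 11.6, 5.01 and 12.3 CPM in KO 1, 2 and 3, lower in every library labelled KO where Myh7 was higher (log2 fold change -1.35, SE 0.33, adjusted p = 0.0734). The sources used here do not state whether counting used strand, and reads of Mhrt and Myh7 may not be separable. Myh10, Mylk2, Dio2 and Rxrg each lost the call without any single library other than control 3, with adjusted p from 0.0661 to 0.185 in those fits. None was called among the libraries nearly free of atrial transcripts (adjusted p from 0.125 to 0.543). Rxrg also lost the call with no low-count filter (adjusted p = 0.0506), and Mylk2 by limma (adjusted p = 0.0711). With the library number as a replicate block in edgeR, Myh10, Mylk2, Dio2 and Rxrg all lost it (adjusted p = 0.121, 0.211, 0.146 and 0.175).

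Genes most like a member were sought by the root mean square difference of centred log2 CPM over the 6 libraries, for the 9561 genes whose mean reached 10 CPM. For Myh6 they were Pptc7, a mitochondrial phosphatase (0.0654), Tecr, an enoyl-CoA reductase of lipid synthesis (0.0663), and Ndufb4, a subunit of respiratory complex I (0.0790). For Myl2 they were Coq10a, a coenzyme Q protein (0.0377), Etfdh, the electron transfer flavoprotein dehydrogenase (0.0573), and Ndufaf6, an assembly factor of complex I (0.0595). For comparison, the distance between Myl2 and Myl3 was 0.0728, that between Myh6 and Myl3 was 0.143 and that between Myh6 and Myh7 was 1.56. For Myh7 the nearest were Nox4, a superoxide and peroxide forming oxidase (0.280), Abi3bp, a matrix protein (0.362), and Clu, the secreted chaperone clusterin (0.391), farther away by several times. Nox4 was at 14.8, 8.62 and 6.53 CPM in control and 29.4, 56.4 and 62.7 CPM in KO 1, 2 and 3, with KO 1 lowest of the latter, as for Myh7. These genes were chosen for their likeness over the same libraries, and no test of them is given.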

How the data were processed

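Total RNA was prepared with a kit that marks strand, per the labels' protocols. The submitters' processing notes name HISAT2, Bowtie2 and mm10, without roles. No counting program, annotation release or strand setting is stated. The authors deposited read counts and FPKM per RefSeq transcript (36780 transcripts) and transcript lengths as another property, per the file headers. Columns were given to a genotype by their initial.

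Counts were summed per symbol and tested with edgeR 4.0.16 in R 4.3.3 (quasi-likelihood, TMM, filterByExpr, Benjamini-Hochberg over all genes; called at an adjusted p under 0.05; SE derived from the fold change and the F statistic). Single values per library were compared by two-sided exact permutation tests (scipy 1.17.1). Alternatives used DESeq2 1.42.0, limma 3.58.1 on log2(FPKM + 1), other scalings and filters, a block for the library number, and leaving out libraries. Reads shared by isoforms or related genes may be divided differently by other counting. Intervals cover counting error only.

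The members, lists and tests were chosen with earlier results of these data known. Named genes were the members, Nmrk2, of each list the genes that passed or otherwise the 3 most abundant, and the 3 genes nearest to Myh6, Myh7 and Myl2. Other genes were picked with their values known. Of the remaining marker lists, 0 of 5 endothelial, 0 of 5 smooth muscle and pericyte and 0 of 5 macrophage genes passed. Among 8 fibroblast genes 1 rose, as did 1 of 2 tested fast skeletal muscle genes, and 0 of 3 tested erythroid genes passed. Over all 14466 genes tested 2.61% rose and 1.09% fell. The risen fast skeletal gene, Tnnt3, had 2, 15 and 4 reads in control and passed the low-count filter only through the libraries labelled KO.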

Additional observations from a re-analysis of the deposited data

How the results depend on the processing

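The count of genes changed, 535, was 2318 by DESeq2, 864 by limma on log2(FPKM + 1), 6 with the library number as a replicate block, 0 by edgeR without the 3 libraries with atrial transcripts (an alternative chosen after seeing the data, with 1 library against 2, where 1341 genes had an unadjusted p under 0.05 and the lone control library is assumed to vary like the others) and between 3 and 3628 when a single library was left out. The count of members changed, 0, was 5 by DESeq2, 4 without control 3 (0 to 4 over the libraries left out) and 0 in all other settings. The library numbers were no pairing given by the labels, and deviations of same-numbered libraries correlated at 0.307, -0.33 and -0.352; no member was called with the block. Scaling by library totals moved the median log2 fold change of all genes by 0.10. Myh6, Myh7, Myh7b, Myl2 and Myl3 kept their direction in every setting. Mybpc3 turned to 0.01 with library totals, 0.07 by limma, 0.19 without control 1 (-0.42 to 0.19 over the libraries left out) and 0.83 without the libraries with atrial transcripts, where Mylk3 turned to 0.18. There Myl12a (0.36), Myl4 (0.93), Camk2d (0.03) and Fbxo32 (0.42) turned too. Myl4 was at 0.07 to 0.33 in the 4 other fits that turned it, each lacking 1 library (-4.85 to 0.33 over all 6), and Fbxo32 at 0.00 with library totals and 0.00 to 0.01 without control 1, KO 1 or KO 2 (-0.4 to 0.01 over all 6). The difference in the Myh7 share lay between 10.7 and 19.5 percentage points in all settings. The Myl7 share, different by -0.287 points, was at -1.48 to 0.327 without single libraries and at 0.0346 without those with atrial transcripts, and the Myl4 share, different by 1.87, at -2.25 to 4.04 without single libraries. The cause of these changes was not tested.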

Other observations

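Myh6 and Mylk3, the members with a pair of deposited transcripts, had most reads on one of them. Of the Myh6 reads, the transcript of 6079 bases held 93.8%, 93.9% and 95% in control and 95.8%, 94.2% and 94.4% in KO 1, 2 and 3, the groups overlapping. Of the Mylk3 reads, the transcript of 2617 bases, whose annotated start lies upstream of that of the main transcript, held 0.975%, 0.447% and 1.65% in control and 0.701%, 2.23% and 1.51% in KO 1, 2 and 3, again overlapping. The division of reads between such transcripts is uncertain, since no rule for shared reads is stated.

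Some fast skeletal and embryonic relatives of the members were present, at lower CPM than Myl3 and Mybpc3 in every library. Myl1, a fast skeletal and embryonic essential light chain, was at 76.1, 65.6 and 35.1 CPM in control and 133, 77.7 and 106 CPM in KO 1, 2 and 3 (adjusted p = 0.157 by edgeR), KO 2 exceeding control 1 only narrowly. Mybpc2, the fast skeletal myosin binding protein C, was at 59.1, 40.7 and 14.6 CPM in control and 62.5, 49.9 and 43.4 CPM in KO 1, 2 and 3, with overlapping groups. Mybphl, an atrial relative of Mybpc3, was at 20.9 and 19.5 CPM in control 1 and 2 and 20.4 CPM in KO 1, and at 0.110 CPM or less in the other libraries, the same split as Myl7.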
